A study of Mus musculus with 13 samples.

Results

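The 10 genes described here are Ucp1, Cidea, Elovl3, Cox8b, Cox7a1, Dio2, Ppargc1a, Prdm16, Ebf2 and Ckb, a set associated with heat-producing beige adipocytes. They were picked by gene symbol and by no rule on their values, though with earlier results of these data known. They make up 10 of the 54532 genes in the expression table. Of these 10 genes, 9 were among the 14421 genes that reached 1 FPKM in at least 3 libraries and were tested. Dio2 reached 1 FPKM in 2 libraries and is described by its values. FPKM scales the fragments of a gene by its length and by the size of the library, so it allows levels to be compared between genes.

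The RNA came from the inguinal white fat pad, a subcutaneous depot of the mouse groin, taken from individual mice after 12 h without food. SC_ConD held 3 mice that slept normally and ate normal chow. SF_ConD held 5 mice with fragmented sleep on the same chow, and SF_HPD held 5 mice with fragmented sleep on a diet with 50% of its calories from protein, 12% from fat and 38% from carbohydrate. No group combined normal sleep with the high-protein diet, so the diet was compared only under fragmented sleep. The strain, sex and age of the mice and the length of the exposure were not stated in the labels. SF_ConD against SC_ConD asks about sleep fragmentation, SF_HPD against SF_ConD about the diet under sleep fragmentation, and SF_HPD against SC_ConD about both together. Each comparison shares a group with the other two.

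Beige adipocytes are fat cells within white depots that can burn fuel to make heat. Sympathetic nerves release noradrenaline, which acts on beta-adrenergic receptors of the adipocyte, raises cyclic AMP and induces the thermogenic genes. UCP1 then lets protons leak across the inner mitochondrial membrane, so that respiration releases heat in place of making ATP. The inguinal depot of the mouse is a classical site of such browning and is known for patchy rather than uniform beige cells.

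Of the 10 genes, 7 matched a 250-base promoter window, the bases just upstream of the annotated start, in a RefSeq table of build GRCm38.p6. The windows of Ucp1, Dio2, Cox8b and Cox7a1 are shown because the first pair carries motifs of the cyclic AMP and nuclear receptor routes, and the second pair belongs to the mitochondrial genes whose levels are described per isoform. They lie at chr8:83290098-83290347 on the plus strand for Ucp1, chr12:90739039-90739288 on the minus strand for Dio2, chr7:140900447-140900696 on the minus strand for Cox8b, and chr7:30183921-30184170 on the plus strand for Cox7a1. Each is written 5′ to 3′ in the direction of its gene, with motif matches on either strand in capitals.
Ucp1: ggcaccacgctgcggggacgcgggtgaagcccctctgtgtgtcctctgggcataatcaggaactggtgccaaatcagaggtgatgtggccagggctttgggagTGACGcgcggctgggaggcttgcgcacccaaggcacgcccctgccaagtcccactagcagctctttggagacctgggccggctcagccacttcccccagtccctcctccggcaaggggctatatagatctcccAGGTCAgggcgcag
Dio2: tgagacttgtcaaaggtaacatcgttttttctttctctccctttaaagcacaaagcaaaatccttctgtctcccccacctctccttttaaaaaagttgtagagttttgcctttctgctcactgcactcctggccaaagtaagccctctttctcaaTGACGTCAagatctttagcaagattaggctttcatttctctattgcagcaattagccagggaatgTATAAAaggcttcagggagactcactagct
Cox8b: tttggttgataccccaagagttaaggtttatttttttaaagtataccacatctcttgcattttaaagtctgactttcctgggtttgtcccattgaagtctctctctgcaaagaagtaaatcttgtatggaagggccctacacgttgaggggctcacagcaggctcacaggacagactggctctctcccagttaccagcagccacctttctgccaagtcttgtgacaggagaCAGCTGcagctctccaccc
Cox7a1: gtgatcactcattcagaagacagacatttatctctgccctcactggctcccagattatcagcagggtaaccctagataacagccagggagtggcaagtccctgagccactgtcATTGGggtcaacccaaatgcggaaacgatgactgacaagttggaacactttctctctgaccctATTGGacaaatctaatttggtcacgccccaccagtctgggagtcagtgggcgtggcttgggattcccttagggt
In the Ucp1 window the capitals mark TGACG, the core of the cyclic AMP response element, at position -147 from the start, and the nuclear receptor site AGGTCA at position -14. TGACG was present in 17.8% and AGGTCA in 14% of all 32851 windows in the table. In the Dio2 window they mark the full palindromic element TGACGTCA, which contains TGACG once on each strand and was in 1.55% of windows, and the TATA box TATAAA, which was in 12.4%. In the Cox8b window they mark the muscle E-box CAGCTG, found in 13% of windows, and in the Cox7a1 window 2 copies of CCAAT read on the opposite strand as ATTGG, a box found in 33.8%. AGGTCANAGGTCA, a direct repeat of the nuclear receptor site, was in 0.0335% of windows, and TCAAGGTCA, the site of estrogen-related receptors, was in 0.387%. Neither was matched in the 7 windows. Of the other windows, Ppargc1a held TGACG once, Prdm16 held CCAAT once, and Ckb held TATAAA once and CCAAT in 2 copies. These matches are letters in a window and not shown binding sites.

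The libraries of a group differed strongly in tissue content. All 18 adipocyte markers were above 0 in every library, but their summed level was 1647 FPKM in SF_HPD 2 against 11421 to 66291 FPKM in the other 12 libraries. Adipoq, the adipocyte hormone adiponectin, was at 26.1 FPKM in SF_HPD 2, where the keratin gene Krt18 was at 5015 FPKM. Epithelial and mammary markers summed to 8087 FPKM in SF_HPD 2, 3.95 FPKM in SF_HPD 4 and 158 to 1803 FPKM in the other 11 libraries. Skeletal muscle markers summed to 22580 FPKM in SF_HPD 4, 3330 FPKM in SC_ConD 3, 252 FPKM in SC_ConD 2 and at most 109 FPKM elsewhere. Liver markers summed to 16706 FPKM in SC_ConD 2 and 6938 FPKM in SC_ConD 3, against at most 425 FPKM elsewhere. Lymphoid markers summed to between 425 and 1377 FPKM in SF_ConD 1, 4 and 5 and SF_HPD 4 and 5, and to at most 43.1 FPKM in the other 8. In SC_ConD 1, SF_ConD 3, SF_HPD 1 and SF_HPD 4, long genes were raised relative to the other libraries, with a Spearman correlation across genes of 0.484 to 0.563 between gene length and deviation from the mean level, against -0.436 to 0.03 elsewhere. Recovered reads ran from 14815592 to 18303302 per library. In bulk tissue, fewer beige adipocytes and less RNA per beige adipocyte cannot be told apart.

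None of the 9 tested genes differed between any pair of groups beyond the spread between mice. The spread itself was the main feature: Ucp1 spanned 0 to 124 FPKM and Cidea 1.94 to 937 FPKM over the 13 mice, and the 5 SF_HPD mice alone spanned 0 to 124 and 2.88 to 937 FPKM. For SF_ConD against SC_ConD, 0 of 9 genes passed an adjusted p of 0.05 in limma with Benjamini-Hochberg adjustment, as did 0% of all tested genes. Without SC_ConD 1, 194 of all genes passed and still 0 of the 9. That setting leaves SC_ConD 2 and 3, the libraries rich in liver transcripts, as the SC_ConD group. All 14 liver markers were lower in SF_ConD at an unadjusted p under 0.05 with all libraries. The part of liver RNA in the 194 calls was not tested. In the full set the unadjusted p was under 0.05 for 0 of the 9 and for 5.74% of all genes, and the groups did not overlap for 0 of the 9 and for 3.6% of all genes. For SF_HPD against SF_ConD the counts were again 0 of 9 under each of these rules, against 0%, 1.89% and 0.458% of all genes. For SF_HPD against SC_ConD they were 0 of 9, against 0%, 3.68% and 1.64% of all genes. A voom fit of limma to reads recovered from the table also called 0 genes in each comparison, with 714, 210 and 500 of all genes at an unadjusted p under 0.05. Prdm16 was the one tested member among these, in SF_HPD against SC_ConD.

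**Figure D1:**
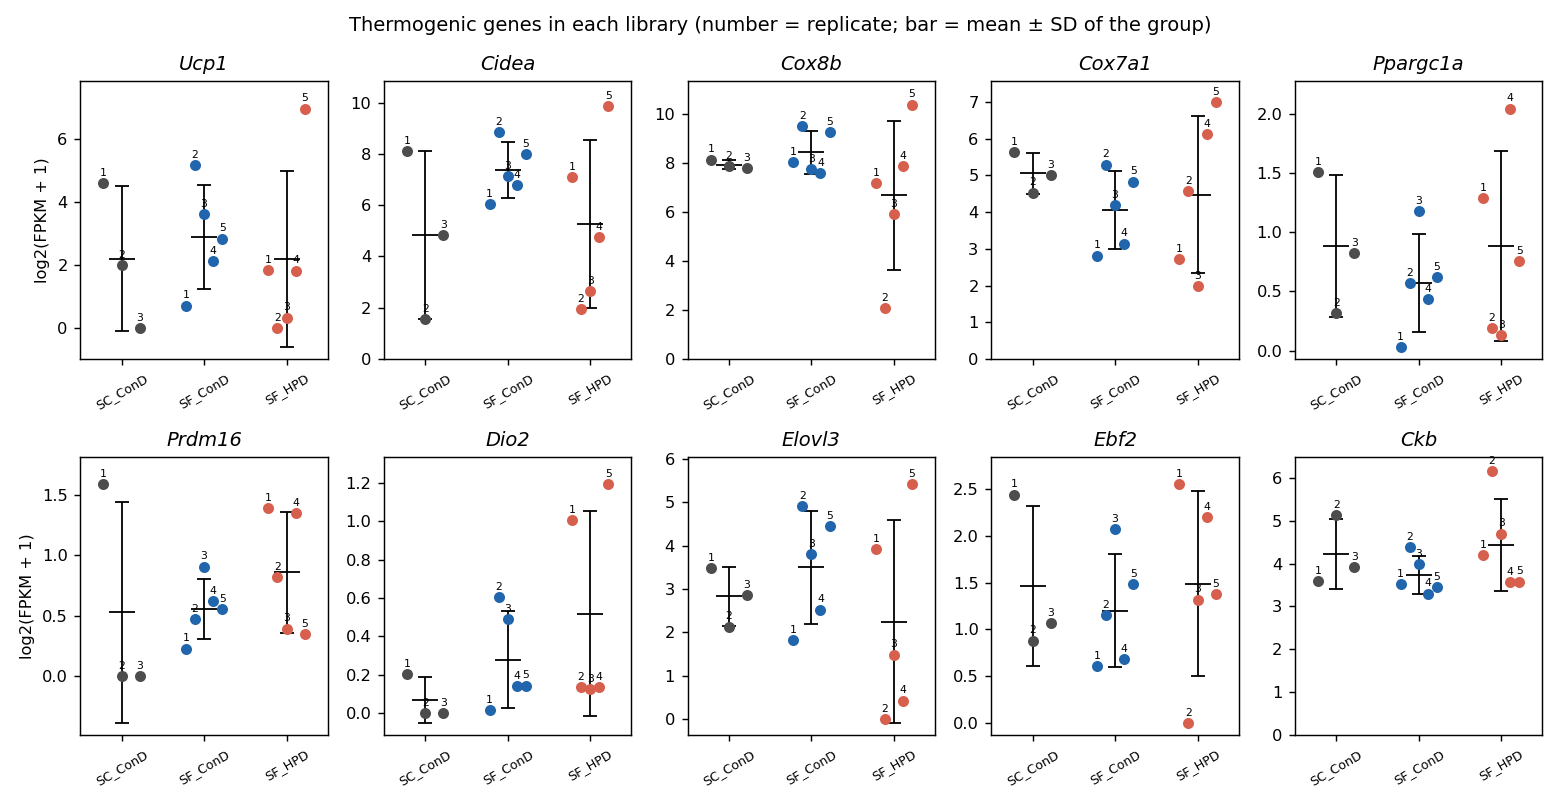
Level of each of the 10 genes in each of the 13 libraries, as log2(FPKM + 1), with 1 point per mouse, 1 column of points per group (SC_ConD n = 3, SF_ConD n = 5, SF_HPD n = 5) and bars for the group mean and SD. The 3 groups overlap for every gene, and by FPKM SF_HPD 5 is the highest library for Ucp1, Cidea, Cox8b, Cox7a1, Dio2 and Elovl3.

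Ucp1, the uncoupling protein itself (ENSMUSG00000031710, GRCm38 chromosome 8, 83290352 to 83298452, plus strand), was at 23.4, 3.03 and 0 FPKM in SC_ConD 1 to 3. In SF_ConD 1 to 5 it was at 0.646, 35.3, 11.2, 3.39 and 6.17 FPKM. In SF_HPD 1 to 5 it was at 2.60, 0, 0.259, 2.55 and 124 FPKM. A single mouse on the high-protein diet thus held the highest value of all 13 and another held no Ucp1 read, while the other 3 of that group lay within the range of the chow-fed mice. The 0 values of SC_ConD 3 and SF_HPD 2 allow up to 0.161 and 0.212 FPKM at 3 reads, which covers counting error only. Group means were 8.79 ± 12.7 FPKM (SD, n = 3) in SC_ConD, 11.4 ± 13.97 FPKM (n = 5) in SF_ConD and 25.96 ± 55.03 FPKM (n = 5) in SF_HPD. In SF_HPD the mean was set by SF_HPD 5, and on the log2(FPKM + 1) scale the group was lower than SF_ConD by a log2 fold change of -0.70 (SE 1.28, 95% interval -3.47 to 2.07). Against SC_ConD, SF_ConD differed by 0.69 (SE 1.48, 95% interval -2.51 to 3.89) and SF_HPD by -0.0092 (SE 1.48, -3.21 to 3.19). Each of these intervals includes a log2 difference of 2 in either direction. Without the 5 lymphoid-rich libraries, which leaves 2 SF_ConD and 3 SF_HPD mice, Ucp1 stood at -3.67 (SE 1.23) in SF_HPD against SF_ConD, with an unadjusted p under 0.05 and no call after adjustment. That setting leaves out SF_HPD 5, at 124 FPKM, and keeps SF_HPD 2, at 0 FPKM. The SF_ConD mice it keeps, SF_ConD 2 and SF_ConD 3 at 35.3 and 11.2 FPKM, were the highest of their group. The part of lymphoid content in this value was not tested.

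Ucp2 and Ucp3, relatives of UCP1 that are not the thermogenic uncoupler, were present in every library. Ucp2 ran from 14.4 to 69.8 FPKM, above Ucp1 in 12 of 13 libraries, with means of 24.3 ± 10.7, 51.6 ± 19.3 and 28.6 ± 9.23 FPKM in SC_ConD, SF_ConD and SF_HPD (SD, n = 3, 5 and 5). Ucp3 ran from 0.258 to 19.7 FPKM.

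Cidea, which encodes a lipid droplet protein strongly expressed in brown and beige fat, was at 274, 1.94 and 27.3 FPKM in SC_ConD 1 to 3. It was at 64.5, 460, 138, 108 and 254 FPKM in SF_ConD 1 to 5, and at 136, 2.88, 5.24, 25.9 and 937 FPKM in SF_HPD 1 to 5. All 5 SF_ConD mice lay inside the range of SF_HPD, and 4 of them inside that of SC_ConD. Cidea had the largest fold changes of the 9 genes in SF_ConD against SC_ConD, at 2.53 (SE 1.70, 95% interval -1.13 to 6.19, adjusted p = 0.9485, limma with Benjamini-Hochberg adjustment), and in SF_HPD against SF_ConD, at -2.09 (SE 1.47, -5.26 to 1.08, adjusted p = 1). The first moved with the SC_ConD library left out, to 4.16 without SC_ConD 1, where the unadjusted p was under 0.05, and to 0.89 without SC_ConD 2, one of the libraries with liver transcripts. The second was -3.24 without SF_HPD 5, also with an unadjusted p under 0.05, and neither was called after adjustment. Between SF_HPD and SC_ConD the difference was 0.44 (SE 1.70).

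Elovl3, an elongase of very long chain fatty acids that brown fat induces in the cold (ENSMUSG00000038754, chromosome 19, 46131897 to 46135307, plus strand), was at 10.2, 3.39 and 6.30 FPKM in SC_ConD 1 to 3. It was at 2.52, 29.0, 13.01, 4.77 and 20.9 FPKM in SF_ConD 1 to 5, and at 14.1, 0, 1.81, 0.349 and 41.4 FPKM in SF_HPD 1 to 5. As for Cox8b, the SF_HPD group held both the highest and the lowest library. SF_HPD 2, listed at 0, also had the lowest adipocyte markers, and SF_HPD 4 the highest muscle markers. The part of tissue content in their low Elovl3 values was not tested. SF_HPD differed from SF_ConD by -1.25 (SE 0.96, 95% interval -3.33 to 0.82), and by 0.10 without both libraries. These libraries were the lowest of SF_HPD for Elovl3, so leaving them out raises the group mean whatever made them low. SF_ConD differed from SC_ConD by 0.68 (SE 1.11).

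Cox8b encodes the brown fat and muscle form of a small subunit of cytochrome c oxidase, the last complex of the respiratory chain (ENSMUSG00000025488, chromosome 7, 140898945 to 140900446, minus strand). It was at 277, 231 and 218 FPKM in SC_ConD 1 to 3, close together in FPKM. Rescaled to a common FPKM sum (TPM), it was at 764, 229 and 292 in these libraries. It was at 260, 716, 212, 190 and 610 FPKM in SF_ConD 1 to 5, and at 142, 3.21, 59.3, 232 and 1314 FPKM in SF_HPD 1 to 5. By FPKM, 3 of the 5 mice on the high-protein diet lay below every SF_ConD mouse and 1 lay above them all. By TPM, SF_HPD 1 was at 539, above SF_ConD 1 at 392. The log2 fold change was -1.74 (SE 1.15, 95% interval -4.23 to 0.74, adjusted p = 1, limma with Benjamini-Hochberg adjustment) for SF_HPD against SF_ConD and 0.50 (SE 1.33) for SF_ConD against SC_ConD. Without SF_HPD 2, the library low in adipocyte markers, the first value was -0.59, and without SF_HPD 5 it was -2.66 with an unadjusted p under 0.05.

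Cox7a1 is the heart, muscle and brown fat form of another small subunit of the same enzyme (ENSMUSG00000074218, chromosome 7, 30184144 to 30186078, plus strand). It was at 48.8, 22.1 and 31.1 FPKM in SC_ConD 1 to 3, at 6.05, 38.3, 17.3, 7.86 and 27.5 FPKM in SF_ConD 1 to 5, and at 5.60, 22.7, 2.98, 68.8 and 126 FPKM in SF_HPD 1 to 5. SF_HPD 4, the library with the most muscle transcripts, was the second highest. Muscle expresses Cox7a1 too, and the part of muscle RNA in this value was not tested. The fold change was -1.0 (SE 1.0, 95% interval -3.16 to 1.16) for SF_ConD against SC_ConD and 0.42 (SE 0.87, -1.45 to 2.29) for SF_HPD against SF_ConD.

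Both subunits have a widely expressed counterpart, and the share of each pair does not depend on the scale of the library. Cox8b made up 27.4, 2.89 and 11.4% of the summed FPKM of Cox8b and Cox8a in SC_ConD 1 to 3. The share was 13.9, 22.5, 25.3, 17.6 and 26.7% in SF_ConD 1 to 5, and 26.5, 0.0772, 3.75, 47.8 and 31.6% in SF_HPD 1 to 5. The SF_ConD mice were close together, while SF_HPD ran from nearly no Cox8b to nearly as much Cox8b as Cox8a. Both ends of this range were libraries of unusual tissue content. The share of 0.0772% was that of the library low in adipocyte markers, and 47.8% that of SF_HPD 4, the muscle-rich library. Cox8b is also a muscle form, and the part of tissue content in this range was not tested. The group means were 13.9 ± 12.4%, 21.2 ± 5.38% and 21.95 ± 19.96% (SD, n = 3, 5 and 5), which differ by less than the spread within SF_HPD. Cox7a1 made up 11.7 ± 14.4%, 6.93 ± 4.12% and 15.1 ± 17.9% of Cox7a1 plus Cox7a2 in the same order. Its highest shares were 45.1% in SF_HPD 4, the muscle-rich library, and 28.1% in SC_ConD 1. The 4 libraries that leaned toward long genes were all at 25.3% or more for Cox8b and at 10.2% or more for Cox7a1. SF_HPD 5, which did not lean that way, was at 31.6% and 16.4%, and SF_ConD 5, likewise, was at 26.7% for Cox8b. The part of the lean in the shares was not tested.

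**Figure D2:**
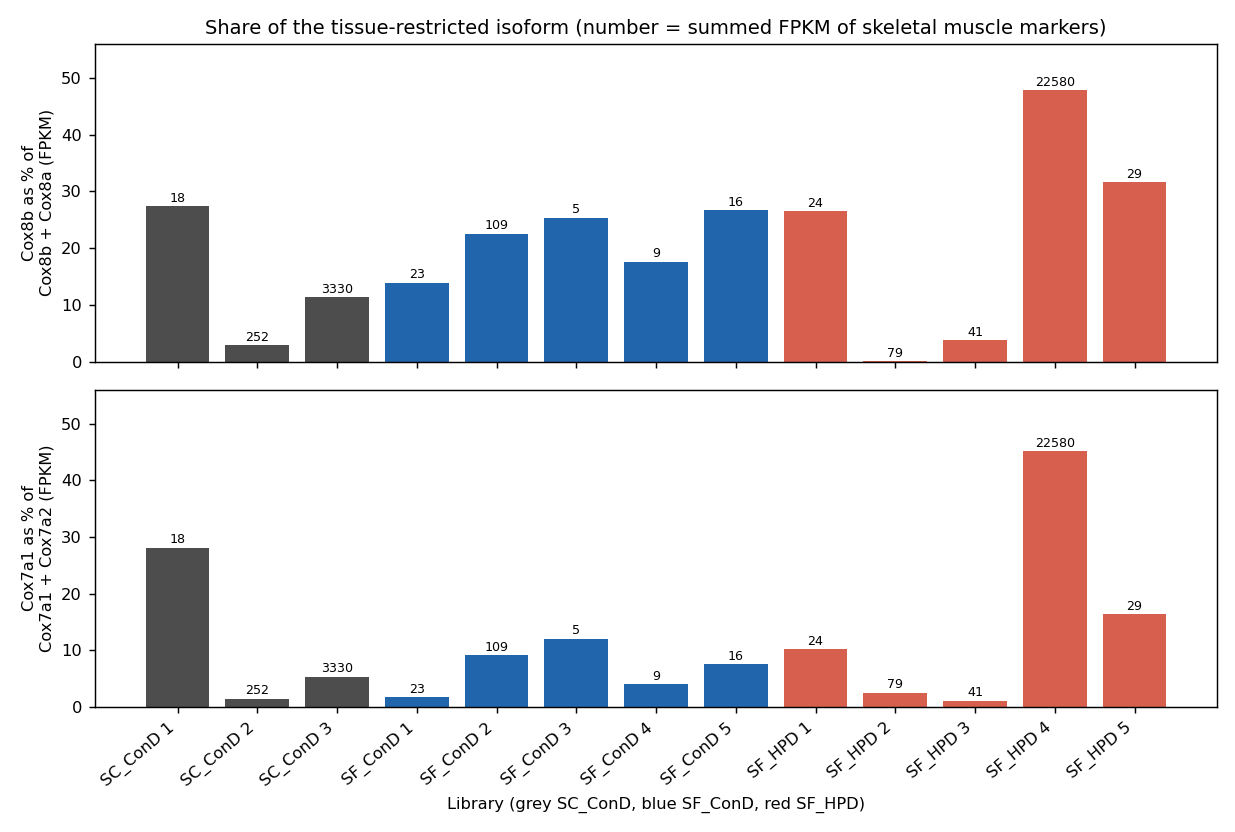
Share of Cox8b in Cox8b plus Cox8a and of Cox7a1 in Cox7a1 plus Cox7a2, in percent of the summed FPKM, with 1 bar per library, colour by group (grey SC_ConD, blue SF_ConD, red SF_HPD), and the summed FPKM of skeletal muscle markers printed above each bar. The Cox8b share runs from 0.0772% in SF_HPD 2 to 47.8% in SF_HPD 4, and the 3 groups overlap for both pairs.

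Dio2 encodes the deiodinase that makes active thyroid hormone inside the brown or beige cell (ENSMUSG00000007682, chromosome 12, 90724552 to 90738438, minus strand). It was low throughout, at 0.153, 0 and 0 FPKM in SC_ConD 1 to 3, and at 0.0114, 0.518, 0.404, 0.102 and 0.105 FPKM in SF_ConD 1 to 5. SF_HPD 1 and 5 reached 1.01 and 1.28 FPKM, or 125 and 74 reads, and SF_HPD 2, 3 and 4 were at 0.0993, 0.0912 and 0.0997 FPKM. So 2 of 5 mice on the high-protein diet lay above all others, and the other 3 lay within the range of both other groups. In a fit of all 29194 genes with any signal, the log2 fold change was 0.21 (SE 0.27), 0.24 (SE 0.24) and 0.45 (SE 0.27) in the comparisons in the order above, with adjusted p of 1, 0.9653 and 0.9362 (limma, Benjamini-Hochberg adjustment).

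Ppargc1a, Prdm16 and Ebf2 encode regulators: PGC-1alpha, the coactivator that drives mitochondrial genes, PRDM16, which holds the brown and beige identity, and EBF2, a factor of brown and beige precursors and adipocytes. They lie on chromosome 5 (51454250 to 51567726, minus strand), chromosome 4 (154316125 to 154636873, minus strand) and chromosome 14 (67233292 to 67430918, plus strand). Ppargc1a was at 1.85, 0.245 and 0.774 FPKM in SC_ConD 1 to 3, at 0.02, 0.488, 1.27, 0.353 and 0.541 FPKM in SF_ConD 1 to 5, and at 1.44, 0.14, 0.0966, 3.13 and 0.689 FPKM in SF_HPD 1 to 5. Prdm16 was at 2.01, 0 and 0 FPKM, then 0.17, 0.388, 0.875, 0.536 and 0.467 FPKM, then 1.62, 0.768, 0.313, 1.55 and 0.271 FPKM in the same libraries. Ebf2 was at 4.44, 0.839 and 1.09 FPKM, then 0.524, 1.22, 3.20, 0.60 and 1.80 FPKM, then 4.86, 0, 1.49, 3.59 and 1.60 FPKM.

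All 3 regulators had their 4 highest values in SC_ConD 1, SF_ConD 3, SF_HPD 1 and SF_HPD 4, the 4 libraries that leaned toward long genes and that come from all 3 groups. The other 6 thermogenic genes tested did not share this order. The same was true of 13.5% of all tested genes, of 40% of the 2935 tested genes at least as long as Ppargc1a, the shortest of the 3, and of 0.651% of the 3072 shorter than Ucp1. The lengths in the table are 9321 bases for Prdm16, 6928 for Ebf2 and 6592 for Ppargc1a, against 360 for Cox8b, 535 for Cox7a1 and 1636 for Ucp1. Over the 13 libraries the level of Prdm16, Ppargc1a and Ebf2 followed the strength of the length trend with Pearson r of 0.883, 0.842 and 0.826, and that of Ucp1 with 0.121, as a description over libraries that share their reads between both measures. The part of transcript length in the regulators' order was not tested.

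No regulator differed between groups beyond the spread. For Ppargc1a the log2 fold change was -0.32 (SE 0.45, 95% interval -1.28 to 0.65) in SF_ConD against SC_ConD and 0.31 (SE 0.39, -0.52 to 1.15) in SF_HPD against SF_ConD. For Prdm16 the values were 0.03 (SE 0.40) and 0.30 (SE 0.34), and for Ebf2 -0.26 (SE 0.56) and 0.29 (SE 0.49). At these low levels the added 1 FPKM shrinks a fold change. With 0.1 FPKM added, Prdm16 stood at 0.97 (SE 1.02) in SF_ConD against SC_ConD and 1.57 (SE 1.02) in SF_HPD against SC_ConD. Voom on recovered reads gave 3.77 (SE 1.83) and 4.34 (SE 1.79), with SC_ConD 2 and 3 at 0 Prdm16 reads, so that these fitted values depend on the prior count. Prdm16 was just inside the filter, with 1 FPKM or more in 3 libraries, and Dio2 just outside with 2.

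**Figure D3:**
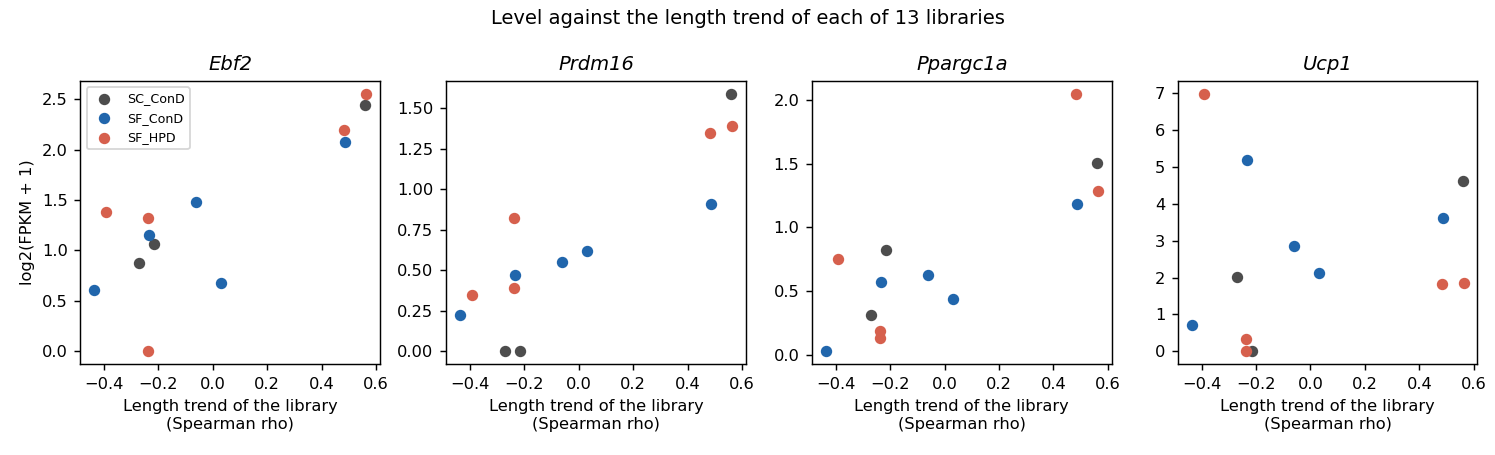
Level of Ebf2, Prdm16, Ppargc1a and Ucp1, as log2(FPKM + 1), against the length trend of each of the 13 libraries, the Spearman correlation across genes between gene length and deviation from the mean level, with points marked by group. Prdm16, Ppargc1a and Ebf2 are highest in the 4 libraries with a trend of 0.484 to 0.563, and Ucp1 is not.

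Ckb encodes the brain-type creatine kinase, which beige and brown adipocytes use in a creatine cycle that dissipates ATP without UCP1 (ENSMUSG00000001270, chromosome 12, 111669361 to 111672338, minus strand). It was at 11.03, 34.2 and 14.2 FPKM in SC_ConD 1 to 3, at 10.4, 19.9, 14.9, 8.85 and 9.98 FPKM in SF_ConD 1 to 5, and at 17.3, 70.7, 25.1, 10.9 and 10.9 FPKM in SF_HPD 1 to 5. Ckb was at 8.85 FPKM or more in every library. By FPKM, SF_HPD 2, lowest or tied lowest for Ucp1, Cox8b, Elovl3 and Ebf2, was its highest library. By TPM, Ckb was at 53.5 in SF_HPD 2, below SF_HPD 1 at 65.9 and SF_HPD 3 at 53.8. Brain-type creatine kinase is also expressed outside fat, and SF_HPD 2 had 5015 FPKM of Krt18 and few adipocyte transcripts. The part of other cells in its Ckb level was not tested. SF_HPD differed from SF_ConD by 0.71 (SE 0.49, 95% interval -0.34 to 1.77) and by 0.28 without SF_HPD 2. SF_ConD differed from SC_ConD by -0.49 (SE 0.56). Ckm, the muscle creatine kinase, was at 1151 FPKM in SF_HPD 4 and 210 FPKM in SC_ConD 3, and at most 8.37 FPKM elsewhere, and the mitochondrial Ckmt2 was at 234 and 22.6 FPKM in the same pair.

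**Figure D4:**
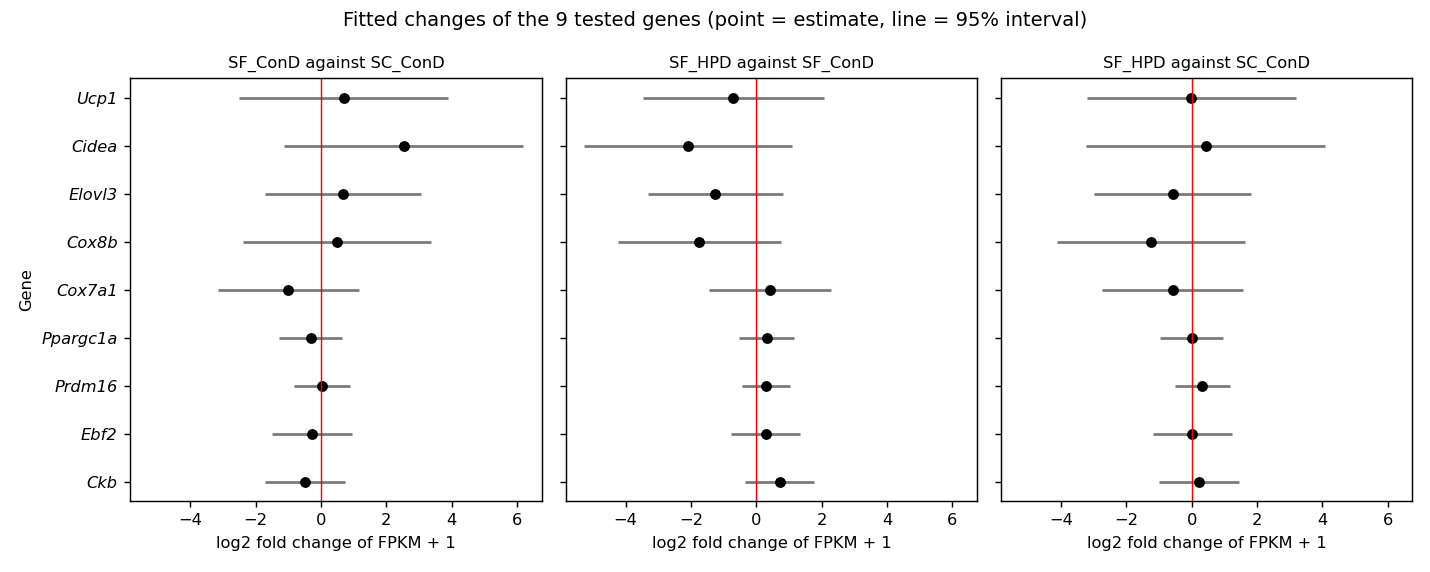
Log2 fold change of the 9 tested genes in the 3 comparisons, on the log2(FPKM + 1) scale, with bars for the 95% interval. Every interval includes 0, and the intervals of Cidea are the widest.

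Read as a set, the 9 tested genes had no common direction. In SF_ConD against SC_ConD, 5 of 9 were positive with a median log2 fold change of 0.03, against 47.4% positive and a median of -0.03 over all tested genes. In SF_HPD against SF_ConD, 5 of 9 were positive with a median of 0.29, against 51.9% and 0.01. The 4 negative genes were Ucp1, Cidea, Cox8b and Elovl3. This median was -0.98 with the filter on a mean of 5 FPKM, which keeps 6 of the genes, and -0.73 with voom. It was -1.65 without the lymphoid-rich libraries, -0.21 without SF_HPD 5 and -0.08 without the long-gene libraries. Under all other settings it lay from 0.01 to 0.41. In SF_HPD against SC_ConD, 4 of 9 were positive with a median of -0.0014, against 51.8% and 0.02. The median SE of the 9 genes was 1.0, 0.87 and 1.0, against 0.47, 0.41 and 0.47 over all tested genes. Within groups, Cidea varied more than 99.6% of tested genes, Ucp1 more than 99.2%, Cox8b more than 98.4%, Elovl3 more than 96.2% and Cox7a1 more than 94.1%, while Ppargc1a and Prdm16 varied more than 46.9% and 35.7%. These ranks are on the log2(FPKM + 1) scale, where the added 1 FPKM shrinks the spread of genes at low levels. Ppargc1a and Prdm16 averaged 0.849 and 0.689 FPKM over the 13 libraries, so their ranks are not a measure of stable expression.

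The mice themselves ranked similarly for one subset of the genes. By FPKM, SF_HPD 5 was the highest library for 6 of the 10 genes. By the same measure, SF_ConD 2 was among the top 3 for Ucp1, Cidea, Cox8b, Dio2 and Elovl3. Rescaled to TPM, SF_HPD 5 stayed highest for Ucp1, Cidea and Cox8b. Cox7a1 was then highest in SF_HPD 4 (219, against 136 in SF_HPD 5). Elovl3 and Dio2 were then highest in SF_HPD 1 (53.5 and 3.83, against 44.7 and 1.39 in SF_HPD 5). Over the 13 libraries Pearson r was 0.788 (Spearman rho 0.834) for Ucp1 and Cidea, 0.778 (0.787) for Ucp1 and Elovl3, 0.838 (0.879) for Cidea and Elovl3, and 0.692 (0.696) for Ucp1 and Cox8b. The correlation of Ucp1 and Cidea was 0.806 for deviations from the group means, and 0.666 without SF_ConD 2 and SF_HPD 5. Ucp1 and Cox7a1 reached 0.618, which fell to 0.36 without those libraries and so rests on them. Ppargc1a and Ebf2 reached 0.838, both being highest in the 4 libraries that leaned toward long genes. Ckb had negative values with Cox8b (-0.755) and Cidea (-0.702), which were -0.293 and -0.357 without the 2 farthest libraries of each. All of these are descriptions over libraries that share tissue makeup and scaling with both genes of a pair.

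**Figure D5:**
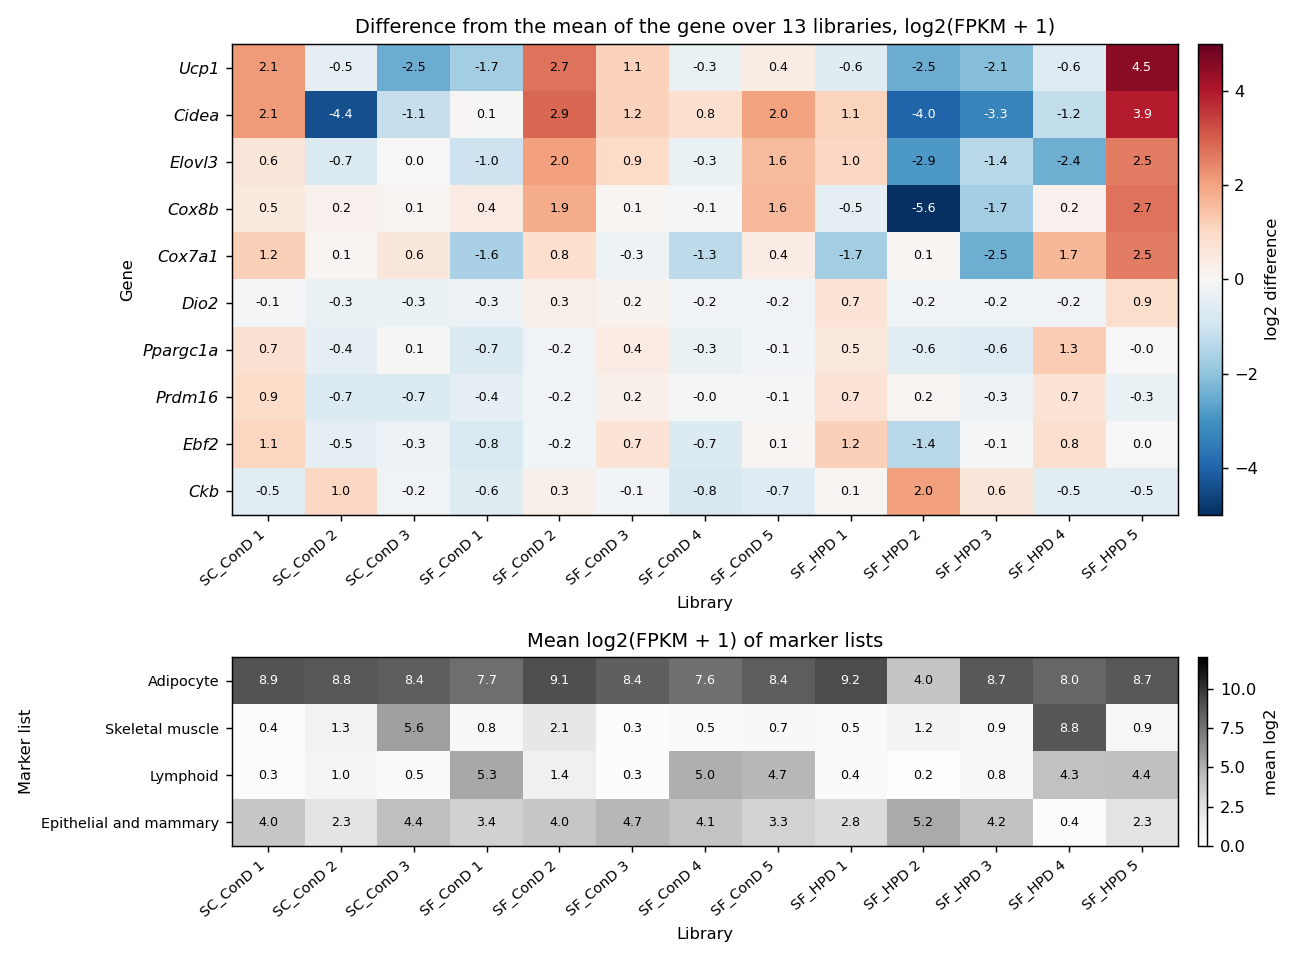
Each of the 10 genes in each of the 13 libraries, as the difference of log2(FPKM + 1) from the mean of that gene over all libraries, with libraries in columns by group and the colour scale ending at 5 on either side; the lower panel gives the mean log2(FPKM + 1) of 4 marker lists. Ucp1, Cidea, Elovl3 and Cox8b are high together in SF_HPD 5 and SF_ConD 2, and low in SF_HPD 2.

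Among 9646 genes whose mean reached 2 FPKM, those most like Ucp1 over the 13 libraries were Otop1 (r = 0.883), Hadhb (0.881), Afg1l (0.852), Gid4 (0.844) and Sucla2 (0.840). Otop1 encodes a proton channel known from brown fat and Hadhb a subunit of the enzyme complex of fatty acid oxidation. Without SF_ConD 2 and SF_HPD 5, r was 0.856 for Otop1 and 0.840 for Hadhb, and 0.608 for Sucla2. Otop1 was also the gene most like Cidea (0.892). The genes most like Cox8b were Slc36a2 (0.930), St3gal6 (0.928), Fmo1 (0.920), Aatf (0.887) and Osbpl9 (0.882), and these rested in part on SF_HPD 2 and SF_HPD 5, without which r was 0.681, 0.714, 0.615, 0.564 and 0.382. The closest gene to Cox7a1 was Fabp3 (0.915), a fatty acid binding protein of heart, muscle and brown fat. For the others it was Nxnl1 for Elovl3 (0.919), Ecpas for Ppargc1a (0.956), Asah2 for Prdm16 (0.970), Dlc1 for Ebf2 (0.980) and Zfp523 for Ckb (0.940). Ppargc1a, Prdm16 and Ebf2 followed the length trend of the libraries, and its part in their likeness was not tested. All genes named here were picked for the highest r among 9646 over 13 libraries, so a high r is built in.

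Of 28 further genes of brown fat metabolism and mitochondria, 23 were tested and 0 passed in any comparison. They had no common direction, with 11, 9 and 10 of 23 positive in the 3 comparisons and medians of -0.14, -0.08 and -0.17. Cidec, a lipid droplet protein, was the highest at 2174 ± 675, 1681 ± 829 and 1445 ± 1098 FPKM in SC_ConD, SF_ConD and SF_HPD (SD, n = 3, 5 and 5), followed by Cox4i1 and Chchd10. The smallest p among these genes in SF_HPD against SF_ConD was that of Aspg, with 5.72 ± 3.14 FPKM in SF_ConD and 2.36 ± 2.77 FPKM in SF_HPD (log2 fold change -1.17, SE 0.56), followed by Hspb7 (1.49, SE 0.88). In SF_ConD against SC_ConD it was that of Slc27a2, a fatty acid transporter also known from liver, with -1.80 (SE 0.98), followed by S100b (-0.75, SE 0.45). Slc27a2 was at 18.7 ± 16.0 FPKM in SC_ConD, the group that held both libraries rich in liver transcripts, and at 4.16 ± 2.35 FPKM in SF_ConD. The part of liver RNA in this difference was not tested.

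Of 13 beige-selective markers, 11 were tested and 0 passed: 7 were positive in SF_ConD against SC_ConD (median 0.80) and 2 in SF_HPD against SF_ConD (median -0.49), and in SF_HPD against SC_ConD it was 5 (median -0.46). These comparisons share the SF_ConD mice, so a high SF_ConD level enters them with opposite sign. Lymphoid-rich libraries occurred in SF_ConD and SF_HPD and not in SC_ConD. Of the 7 genes positive in SF_ConD against SC_ConD, Cd40, Tnfrsf9 and Sp100 stood at 1.32 (SE 0.91), 1.14 (SE 0.63) and 1.01 (SE 0.65). The part of lymphoid RNA in the values of this list was not tested. Cited1, a coregulator used as a beige marker, was at 16.2 ± 14.7 FPKM in SC_ConD, 46.6 ± 27.1 FPKM in SF_ConD and 12.2 ± 18.3 FPKM in SF_HPD (SD, n = 3, 5 and 5). Its log2 fold change was 2.24 (SE 1.30) and then -2.90 (SE 1.12), with adjusted p of 0.9101 and 1 in limma with Benjamini-Hochberg adjustment. Shox2 stood at 1.74 (SE 0.66) and Hoxc9 at -1.02 (SE 0.46) in SF_ConD against SC_ConD, with adjusted p of 0.8222 and 0.8608 by the same method. Klhl13, with the second smallest p in SF_HPD against SF_ConD, stood at -0.57 (SE 0.37). Slc27a1 and Ear2 had the highest levels next to Cited1, with 165 ± 137, 143 ± 56.8 and 183 ± 177 FPKM for Slc27a1.

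Of 8 classical brown fat markers, 6 were tested and 0 passed. Epsti1, the highest, was at 2.68 ± 0.734 FPKM in SC_ConD, 65.9 ± 63.1 FPKM in SF_ConD and 41.9 ± 81.3 FPKM in SF_HPD (SD, n = 3, 5 and 5). Epsti1 is also known as an interferon-responsive gene, and lymphoid markers were high in 3 SF_ConD and 2 SF_HPD libraries and in no SC_ConD library. Their part in the Epsti1 level was not tested. Fbxo31 had the smallest p in both comparisons with SF_HPD, at -0.89 (SE 0.42) against SF_ConD and -1.15 (SE 0.48) against SC_ConD.

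Of 30 further regulators, 28 were tested and 0 passed. In the 3 comparisons 12, 17 and 14 of 28 were positive, with medians of -0.05, 0.09 and 0.0018. Pparg, the master regulator of adipocytes, was the highest at 129 ± 42.8, 74.3 ± 34.5 and 64.0 ± 17.6 FPKM in SC_ConD, SF_ConD and SF_HPD (SD, n = 3, 5 and 5), followed by Cebpb and Esrra. Esrra, an orphan nuclear receptor of mitochondrial genes, was at 18.0 ± 8.79, 27.1 ± 7.74 and 36.6 ± 11.3 FPKM. Its fold change of 1.03 (SE 0.37) in SF_HPD against SC_ConD had an adjusted p of 0.9466 in limma with Benjamini-Hochberg adjustment. In SF_ConD against SC_ConD the smallest p values were those of Ppara (-1.27, SE 0.57) and Nrf1 (0.51, SE 0.25), and in SF_HPD against SF_ConD that of Lcor (0.61, SE 0.30). Ppara was at 6.08 ± 4.27 FPKM in SC_ConD, the group that held both liver-rich libraries, and at 1.65 ± 0.996 FPKM in SF_ConD. The part of liver RNA in the Ppara difference was not tested.

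The genes that carry the signal to the thermogenic program were 25, of which 21 were tested and 0 passed. Adrb3, the beta3-adrenergic receptor of adipocytes, was at 96.0 ± 28.7, 59.1 ± 25.2 and 58.7 ± 38.5 FPKM in SC_ConD, SF_ConD and SF_HPD (SD, n = 3, 5 and 5). Prkar2b, a regulatory subunit of protein kinase A, was at 131 ± 107, 109 ± 54.8 and 145 ± 99.2 FPKM, and its relative Prkar1a at 42.0 ± 16.2, 44.8 ± 17.0 and 42.7 ± 21.3 FPKM. Npr3, which clears natriuretic peptides, was at 14.1 ± 9.95 FPKM in SC_ConD, 2.01 ± 1.21 FPKM in SF_ConD and 9.18 ± 7.42 FPKM in SF_HPD. Its log2 fold change was -2.22 (SE 0.77) and then 1.28 (SE 0.67), with adjusted p of 0.7865 and 1 in limma with Benjamini-Hochberg adjustment. Tshr, the thyrotropin receptor, stood at -1.15 (SE 0.62) in SF_ConD against SC_ConD, and Bmp4 at 0.71 (SE 0.41) in SF_HPD against SF_ConD.

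Of 20 genes of UCP1-independent futile cycles, the company of Ckb, 16 were tested and 0 passed. In SF_HPD against SF_ConD 11 of 16 were positive with a median of 0.33, in SF_ConD against SC_ConD 5 of 16 with a median of -0.35, and in SF_HPD against SC_ConD 10 of 16 with a median of 0.12. Skeletal muscle markers stood at a median of 1.75 with 12 of 12 positive, -1.72 with 0 of 12 and 0.10 with 7 of 12 in the same order. The list itself holds the muscle genes Ckm (2.08 and -1.92 in the first pair) and Atp2a1 (1.73 and -1.53), and the part of muscle RNA in the other genes was not tested. Slc6a8, the creatine transporter, was at 5.41 ± 3.34, 3.93 ± 1.72 and 7.89 ± 3.25 FPKM in SC_ConD, SF_ConD and SF_HPD (SD, n = 3, 5 and 5), and its change of 0.85 (SE 0.38) in SF_HPD against SF_ConD had an adjusted p of 1 in limma with Benjamini-Hochberg adjustment. Gatm, which makes the creatine precursor, stood at 0.41 (SE 0.29) in the same comparison. Gk, glycerol kinase, stood at -0.90 (SE 0.44) and Gamt, which completes creatine synthesis, at -1.03 (SE 0.56) in SF_ConD against SC_ConD. Gamt was at 13.9 ± 12.0 FPKM in SC_ConD, the group that held both liver-rich libraries, and at 4.95 ± 2.48 FPKM in SF_ConD. The part of liver RNA in the Gamt difference was not tested. The highest tested genes of the list were the lipase Pnpla2 and the ADP/ATP carriers Slc25a5 and Slc25a4.

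Of 13 other nuclear subunits of cytochrome c oxidase all were tested and 0 passed. Of these, 12 of 13 were negative in SF_ConD against SC_ConD (median -0.58) and in SF_HPD against SC_ConD (median -0.51), and 7 of 13 in SF_HPD against SF_ConD (median -0.03). The exception in the first was Cox4i2, at 0.32 (SE 0.37). Cox8a, the highest, was at 3401 ± 3808, 1455 ± 726 and 1832 ± 1663 FPKM in SC_ConD, SF_ConD and SF_HPD (SD, n = 3, 5 and 5), and Cox7a2 at 708 ± 681, 274 ± 111 and 381 ± 360 FPKM. SC_ConD 2, one of the libraries with liver transcripts, held the highest level of both, at 7763 and 1457 FPKM, and its part in the lean was not tested.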

How the data were processed

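The authors deposited a table of FPKM values for 13 libraries of individual mice. Its columns of gene name, position and length belong to no sample, per the file headers. CASAVA, HISAT2 2.0.5, featureCounts 1.5.0-p3 and the build mm8 are named, per the submitters' processing notes. The annotation and strand setting were not stated in these sources. Of the table's gene IDs, 54409 were in a GRCm38 annotation and 53499 had the same coordinates there (8 of the 10 described genes), so coordinates are given as listed, on GRCm38. The promoter windows follow the start sites of RefSeq, which can differ from the table's.

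Reads were recovered from the steps of each library's FPKM values, and 99.998% came out whole within 0.05. FPKM sums ran from 262812 to 1320723 per library, and the divisor implied by the values was 0.479 to 1.23 times the recovered total. The reason was not stated in these sources.

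Group means of log2(FPKM + 1) were fitted to all 13 libraries with limma 3.58.1 (R 4.3.3), for 14421 genes with at least 1 FPKM in at least 3 libraries, with trend and robust eBayes. Tests were two-sided, and p-values were adjusted over these genes by Benjamini-Hochberg, at 0.05. The steps were tested on simulated data. All 10 genes are named. From each of 7 pathway lists, the rule named the 3 genes with the highest mean and the 2 with the smallest p in a comparison, and 11 marker lists were summed per library. Adipocyte, muscle, liver, lymphoid and epithelial markers are described, and the sums of the others ran over the 13 libraries as follows: smooth muscle 55.4 to 591 FPKM, macrophage 96.4 to 1159, sebaceous and skin 3.71 to 130, Schwann cell 7.87 to 442, stromal progenitor 328 to 1545, and endothelial 33.7 to 460. The described genes, the lists and the rules were chosen with earlier results of these data known. Likeness used Pearson r over the 13 libraries among tested genes whose mean reached 2 FPKM.

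No pair of libraries differed by as little as sampling noise (chi-square per degree of freedom of at least 70.95). Same-numbered libraries of SC_ConD and SF_HPD deviated together from their group means with r of 0.711, 0.333 and 0.191. Each was above 0.1, the mark set for a fit with the replicate number as a block. Nothing in the labels ties an animal of one group to one of the other, so no paired design is stated. SC_ConD 1 and SF_HPD 1, the pair at 0.711, both leaned toward long genes (length trend 0.559 and 0.563). The part of that lean in their r was not tested. Alternatives were another pseudocount, 2 other filters, TPM and median-of-ratios scaling, eBayes without trend and robust, voom on recovered reads, a replicate block, adipocyte and muscle marker covariates, and leaving out single libraries or sets of libraries.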

Additional observations from a re-analysis of the deposited data

Results flagged for a closer look

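Ucp1 in SF_HPD 5 was far above the other 4 SF_HPD mice. Its level was 6.97 on the log2(FPKM + 1) scale (124 FPKM), with the nearest mouse of the group at 1.85. The gap was 0.735 of the range of the group, against a critical value of 0.71 in Dixon's test for 5 samples. It was 1 of 20 groups of values checked, and chance marks about 1 in 20. Lymphoid markers summed to 763 FPKM in this library, and their part in its Ucp1 level was not tested.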

How the results depend on the processing

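No thermogenic gene was called under any of the alternatives or with any 1 library left out, at an adjusted p of 0.05. The unadjusted p was under 0.05 for Cidea without SC_ConD 1 in SF_ConD against SC_ConD, beside 1452 of 14254 genes. In SF_HPD against SF_ConD it was so for Cidea, Cox8b and Elovl3 without SF_HPD 5 (-3.24, -2.66 and -2.04, beside 501 of 14246 genes). Without the 5 lymphoid-rich libraries it was so for Ucp1, Cox8b and Elovl3 (-3.67, -3.56 and -2.56, beside 74 of 12941 genes). By FPKM, SF_HPD 5 was the highest library for each of these genes. Both settings leave SF_HPD 5 out, which by itself lowers the SF_HPD mean. With the replicate block it was so for Ckb, beside 342 of 14421 genes. In SF_HPD against SC_ConD it was so for Prdm16 without SC_ConD 1 (beside 1344 of 14254 genes) and with voom (beside 500 of 14421). It was also so for Cox7a1 without the lymphoid-rich libraries, beside 236 of 12941 genes. Over all genes, leaving out SC_ConD 1, or the 4 libraries that leaned toward long genes, gave 194 and 154 calls in SF_ConD against SC_ConD, and 195 and 158 in SF_HPD against SC_ConD. Both settings leave SC_ConD 2 and 3, the libraries rich in liver transcripts, as the SC_ConD group. The part of liver RNA in these calls was not tested. Without SF_HPD 5, 1 gene was called in each comparison with SF_HPD, and every other setting called 0. Of 369 fold changes under settings other than leaving out 1 library, 329 kept their direction. The median of all genes shifted by 0.19 with TPM and 0.30 with voom in SF_ConD against SC_ConD. The shifts were 0.03 and -0.17 for the diet comparison, and 0.23 and 0.13 for SF_HPD against SC_ConD. The filter on a mean of 5 FPKM gave no value for Ppargc1a, Prdm16 and Ebf2. The causes of the turns below were not tested.

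In SF_ConD against SC_ConD, leaving out SC_ConD 2 and 3 gave -1.71 for Ucp1 (SE 2.18), -0.75 for Cidea (SE 2.33), -1.03 for Prdm16 and 0.14 for Ckb. That leaves SC_ConD 1 alone in its group, assumed to vary like the other groups, so these values restate that library. Ebf2 was at 0.15 without the lymphoid-rich libraries and 0.0078 without the 4 long-gene libraries. Leaving out 1 library gave 0.89 to 4.16 for Cidea, -0.41 to 1.89 for Ucp1 (negative without SC_ConD 3), -0.24 to 0.56 for Prdm16 (negative without SC_ConD 2, SC_ConD 3 or SF_ConD 3) and -0.56 to 0.23 for Ebf2 (positive without SC_ConD 1).

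In SF_HPD against SF_ConD, leaving out SF_HPD 2 and 4 gave 0.15 for Ucp1, -0.16 for Cox7a1 and 0.10 for Elovl3. Without the lymphoid-rich libraries Cox7a1 was at -1.65, Ppargc1a at -0.34 and Ebf2 at -0.32. Without the long-gene libraries Ppargc1a was at -0.056 and Ebf2 at -0.081, and voom gave -0.73 for Ebf2. Leaving out 1 library gave -0.21 to 1.04 for Cox7a1 (negative without SF_HPD 5).

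In SF_HPD against SC_ConD several values lay close to 0. Ucp1 was at 0.042 with a pseudocount of 0.1, 0.20 with TPM, 0.0087 with median-of-ratios scaling, 0.30 with voom, 0.85 without SF_HPD 2 and 4, 1.43 without the long-gene libraries and 0.76 with the adipocyte covariate. Ebf2 was at -0.32 with a pseudocount of 0.1, -0.93 with voom, -0.17 without the lymphoid-rich libraries, -0.95 without SC_ConD 2 and 3 and -0.073 without the long-gene libraries. Ppargc1a was at 0.16 with TPM, 0.0038 with median-of-ratios scaling and 0.16 with the covariate. Cidea was at -0.93 without the lymphoid-rich libraries and -2.84 without SC_ConD 2 and 3, where Prdm16 was at -0.73. Elovl3 was at 0.78 and Ckb at -0.058 without SF_HPD 2 and 4, and at 0.21 and -0.11 with the covariate. Leaving out 1 library gave -1.20 to 1.19 for Ucp1, -1.20 to 2.07 for Cidea, -1.21 to 0.044 for Cox7a1, -0.29 to 0.31 for Ppargc1a, -0.26 to 0.52 for Ebf2 and -0.21 to 0.69 for Ckb.

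With the replicate number as a block, 0 of the 9 genes were called in each comparison, as without it. The block turned Cox8b to -0.32 in SF_ConD against SC_ConD, and Cidea to -0.26 and Ebf2 to -0.034 in SF_HPD against SC_ConD. Between SF_ConD and SC_ConD the same-numbered libraries correlated at -0.558, 0.190 and -0.316, and between SF_HPD and SF_ConD at -0.670 to 0.405. In these comparisons too, the labels give only a shared number.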
